A study of Ovis aries with 30 samples.

Results

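The genes described here mark macrophages and neutrophils, the phagocytes of the innate immune system. They are 39 gene symbols chosen by name, with earlier results of these data known. A row of the deposited count table was taken where its gene name equalled one of them. Of the 28524 genes of the table, 34 were members by this rule, and CD163, ADGRE1, C1QB, CYBA and CCR2 were not analysed here. Enough reads for a test were present for 29 members in brown adipose tissue (BAT), 31 in thyroid tissue and 32 in the comparison of both tissues.

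Macrophages live in nearly every organ, where they take up dying cells, microbes and debris, and they depend on the growth factor receptor CSF1R and the transcription factor PU.1, encoded by SPI1. Tissue macrophages are a main source of complement C1q, whose chains are encoded by neighbouring genes, and carry scavenger receptors such as MSR1, MARCO and MRC1. Neutrophils arrive from the blood and are filled with the calcium-binding proteins S100A8 and S100A9. In adipose tissue macrophages respond to lipid and to remodelling of the depot, and in the thyroid gland they lie between the hormone-producing follicles.

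RNA was sequenced from BAT around the kidneys and from thyroid tissue of 15 newborn Romney lambs, each the heavier of a twin pair born outdoors, with both sexes in every group. Cold lambs (6) were kept indoors at 4 °C for 2 days, AT lambs (6) at the ambient temperature of 20–22 °C for 2 days, and 3 control lambs were sampled soon after they came indoors. No lamb carried a transgene or received an agent, and the treated lambs stayed with their dams. Against the controls, treatment and 2 days of age and housing cannot be told apart, and the comparison free of this is that between cold and AT lambs. The study left out 1 control because it judged its counts as a whole to be outlying. The fits below did the same, with the values of this control given beside them. Controls are numbered here by sample order, so that the lamb left out is Control 2, and the lamb called Control 3 here is the one the study called Control 2.

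The libraries held 31556500 to 37025998 counts in BAT and 25062784 to 30124871 in thyroid tissue, but a pair of genes took up to 76.48% of a BAT library, so that 8093700 to 18276329 counts were left for all other genes. The tissue labels were borne out by their markers: the summed level of 8 thyrocyte genes was 1325900 to 5877740 normalized counts in thyroid libraries and 143 to 1572 in BAT, and that of 8 brown adipocyte genes was 26989 to 365655 in BAT and 1832 to 23237 in thyroid. Thyroid libraries also differed in other tissues' RNA. The sum of 7 skeletal muscle genes was 3340420 in AT 3 and 293014 in Control 1, against 110 to 3976 in the other thyroid libraries, and the sum of 8 T cell genes was 2326 in AT 2, 1109 in AT 3, 848 in AT 4 and 198 to 693 in the others. The sum of 4 thymocyte genes was 350 in thyroid AT 2, 225 in AT 3 and at most 29.1 in the other thyroid libraries. Control 2, the control left out, stood apart in both tissues. The pair of genes took 27.79% of its thyroid library and at most 14.86% of the others. Its brown adipocyte sum was 23237 in thyroid, against at most 11087 in the others, and 365655 in BAT, against at most 114093. No muscle or T cell marker was at 0 in all libraries of a group. The part of these differences in the results was not tested. The members called in thyroid tissue against control, 9 up in cold lambs and 3 up and 1 down in AT lambs, were 10 up and 1 down, and 4 up and 1 down, without AT 3. They were 9 up and 1 down, and 3 up and 1 down, without AT 2, and 9 up, and 3 up and 1 down, without AT 4; the count without Control 1 is given below.

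All values below are normalized counts, which are deposited reads divided by a size factor from the reference genes ACTB, RPL19 and HUWE1, and log2FC is the log2 fold change with its standard error (SE) from edgeR's quasi-likelihood fit of all genes. A gene was called upregulated or downregulated at |log2FC| ≥ 1 and an adjusted p-value under 0.05, with Benjamini-Hochberg adjustment over all genes tested. In these whole-tissue samples, fewer cells of a type and less RNA per cell cannot be told apart.

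Levels were read per kilobase of exon, so that genes can be compared within a tissue. LAPTM5, a lysosomal membrane protein of leukocytes, was the most abundant member in both tissues. Its median was 517 normalized counts per kb in BAT and 845 in thyroid. Size factors were set separately in each tissue, so the levels per kb given here cannot be compared between BAT and thyroid. With size factors shared by both tissues, the median of LAPTM5 was 1827 normalized counts in BAT and 1119 in thyroid. In thyroid tissue C1QC (611) and C1QA (592) came next, followed by LCP1 (542), the actin-bundling protein L-plastin, and the calcium-binding protein AIF1 (397). In BAT the median per kb was 287 for CD68, a lysosomal protein of macrophages, 270 for C1QA, 269 for AIF1 and 209 for FCER1G. The ranges over lambs of these neighbours overlapped in both tissues. At the low end MPO, the myeloperoxidase of neutrophil granules, had a median of 0.289 per kb in BAT and 0.458 in thyroid and reached 10 reads in no library of the fits. The genes TREM2, S100A8, IL1B and TNF in BAT, and S100A8 and CSF3R in thyroid tissue, were also below the minimum of 10 reads in 10 libraries and were not tested.

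Complement C1q showed the largest called rise of the members in thyroid tissue. C1QA, the A chain (chromosome 2, 259717526 to 259720581, minus strand of Oar_rambouillet_v1.0), was at 163 and 152 normalized counts in the controls used. It ranged from 503 to 1183 in AT lambs, with a median of 635, and from 649 to 1984 in cold lambs, with a median of 1237. Every treated lamb was above both controls, and above the 288 of the control left out. The log2FC was 2.98 ± 0.48 in cold lambs (adjusted p-value 0.00246, edgeR) and 2.19 ± 0.46 in AT lambs (adjusted p-value 0.00609). C1QC, the C chain (chromosome 2, 259694065 to 259713348, same strand), was at 362 and 349 in the controls used and 672 in the control left out. Its AT values ran from 1134 through a median of 1719 to 2923, and its cold values from 1468 through 3343 to 5199. Again no treated lamb overlapped with a control, and the log2FC was 3.18 ± 0.52 in cold (adjusted p-value 0.00262, edgeR) and 2.34 ± 0.49 in AT (adjusted p-value 0.00634).

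The ratio of the 2 chains varied little between libraries. Reads of C1QC per read of C1QA were 2.22 to 3.04 over the 15 thyroid libraries and 1.73 to 2.81 over the 15 BAT libraries, with medians of 2.47 and 2.46. The ratio to CD68 varied more: CD68 reads per C1QA read ran from 0.267 to 4.04 in thyroid and from 0.470 to 7.22 in BAT.

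**Figure D1:**
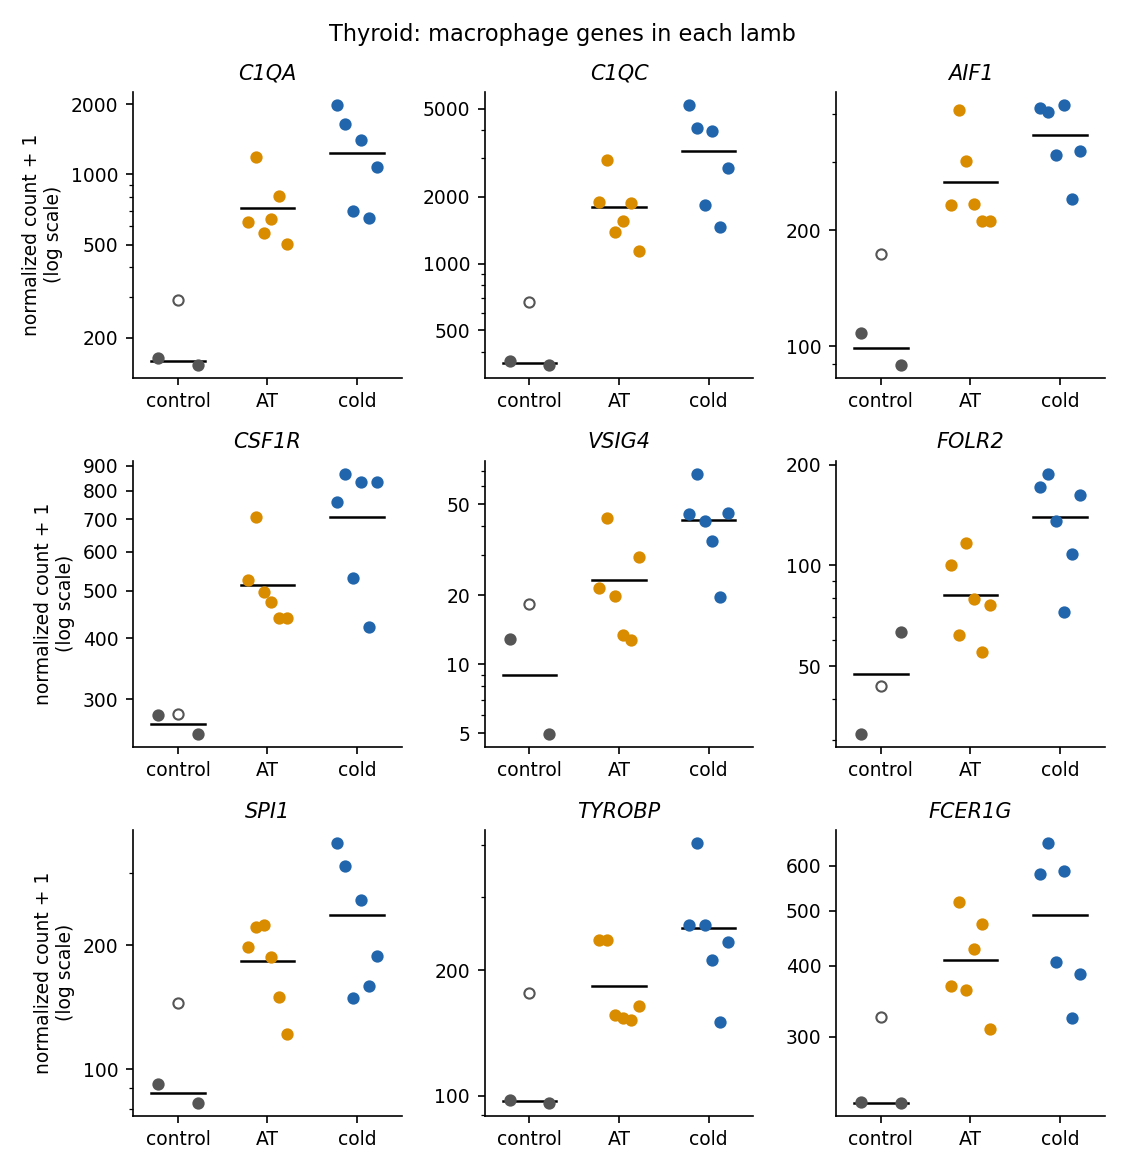
Normalized counts plus 1 (log scale) of the 9 members upregulated in thyroid tissue of cold lambs, in each lamb by group; filled points are libraries in the fit, open points Control 2, and lines the means of the filled points. C1QA lies between 503 and 1984 in treated lambs, above all 3 controls, whereas the groups lie closer for FCER1G and FOLR2.

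In thyroid tissue of cold lambs, 9 of the 31 tested members were upregulated and none downregulated, against 1.89% of all genes upregulated and 6.15% downregulated (8.04% either way). The other 7 were 4 surface genes, AIF1, CSF1R, VSIG4 and FOLR2, and 3 genes of receptor signalling and its transcription, SPI1, TYROBP and FCER1G. For 15 of the 31 members every cold lamb was above both controls, which held for 6.18% of all genes. The log2FC was above 0 for 24 of 31 members and for 29.8% of all genes, with a median of 1.05 over the members and -0.28 over all genes. Scaling by TMM, a factor from all genes, moved the median of all genes to 0.02 and that of the members to 1.27, and the split of all calls from 305 up and 991 down to 456 up and 336 down, with 9 members called by either scaling.

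CSF1R, the receptor for macrophage growth factors, was at 277 and 254 in the controls used and at 278 in Control 2. It ran from 420 to 865 in cold lambs (median 794) and from 438 to 707 in AT lambs (median 484), all above the controls. Its log2FC was 1.41 ± 0.29 in cold lambs (adjusted p-value 0.00642, edgeR) and 0.95 ± 0.28 in AT lambs (adjusted p-value 0.0278), where it missed the fold threshold. AIF1 was at 107 and 88.6 in the controls, from 240 to 421 in cold lambs (median 361) and from 210 to 408 in AT lambs (median 233). It was upregulated in both, by 1.84 ± 0.32 in cold (adjusted p-value 0.00309, edgeR) and 1.44 ± 0.31 in AT (adjusted p-value 0.00704).

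VSIG4, a complement receptor of resident macrophages, was at 11.9 and 3.97 in the controls, the latter from 3 reads. It ran from 18.7 to 66.9 in cold lambs (median 42.7) and from 11.7 to 42.5 in AT lambs (median 19.8), so that the cold lambs and not all AT lambs lay above the controls. FOLR2, the folate receptor of resident macrophages, was at 30.4 and 62.2 in the controls and ran from 71.7 to 186 in cold lambs (median 148). In AT lambs FOLR2 ran from 54.0 to 116 (median 76.7) and overlapped with the controls. The log2FC in cold lambs was 2.34 ± 0.64 for VSIG4 (adjusted p-value 0.0228, edgeR) and 1.58 ± 0.44 for FOLR2 (adjusted p-value 0.0236).

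SPI1 was at 91.2 and 82.0 in the controls, 148 to 353 in cold lambs (median 222) and 121 to 223 in AT lambs (median 192). TYROBP, an adaptor that passes on signals of receptors such as TREM2, was at 96.6 and 95.2 in the controls, 149 to 403 in cold lambs (median 244) and 151 to 236 in AT lambs (median 159). FCER1G, the signalling chain shared by Fc receptors, was at 229 in both controls, 323 to 656 in cold lambs (median 493) and 308 to 516 in AT lambs (median 397). For all 3 genes both treated groups lay wholly above the controls used. In cold lambs the log2FC was 1.44 ± 0.38 for SPI1 (adjusted p-value 0.0185, edgeR), 1.39 ± 0.35 for TYROBP (0.0154) and 1.10 ± 0.29 for FCER1G (0.0187).

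The control left out was higher than the other 2 for SPI1 (144), TYROBP (176), FCER1G (324), AIF1 (172) and VSIG4 (17.4). With Control 2 in place of Control 1, the calls of C1QA, C1QC, AIF1, CSF1R and FOLR2 in cold lambs remained while those of VSIG4 (adjusted p-value 0.0564), SPI1 (0.0829), TYROBP (0.121) and FCER1G (0.0763) were lost, and the same 5 calls remained with Control 2 in place of Control 3. Without Control 3, which leaves a single control assumed to vary like the other groups, none of the 9 was called, C1QA for instance had a log2FC of 2.95 with an adjusted p-value of 0.0832, and the calls over all genes went from 1296 to 91. Without Control 1, the library with muscle RNA, C1QA, C1QC, AIF1, CSF1R and VSIG4 were the 5 members called.

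**Figure D2:**
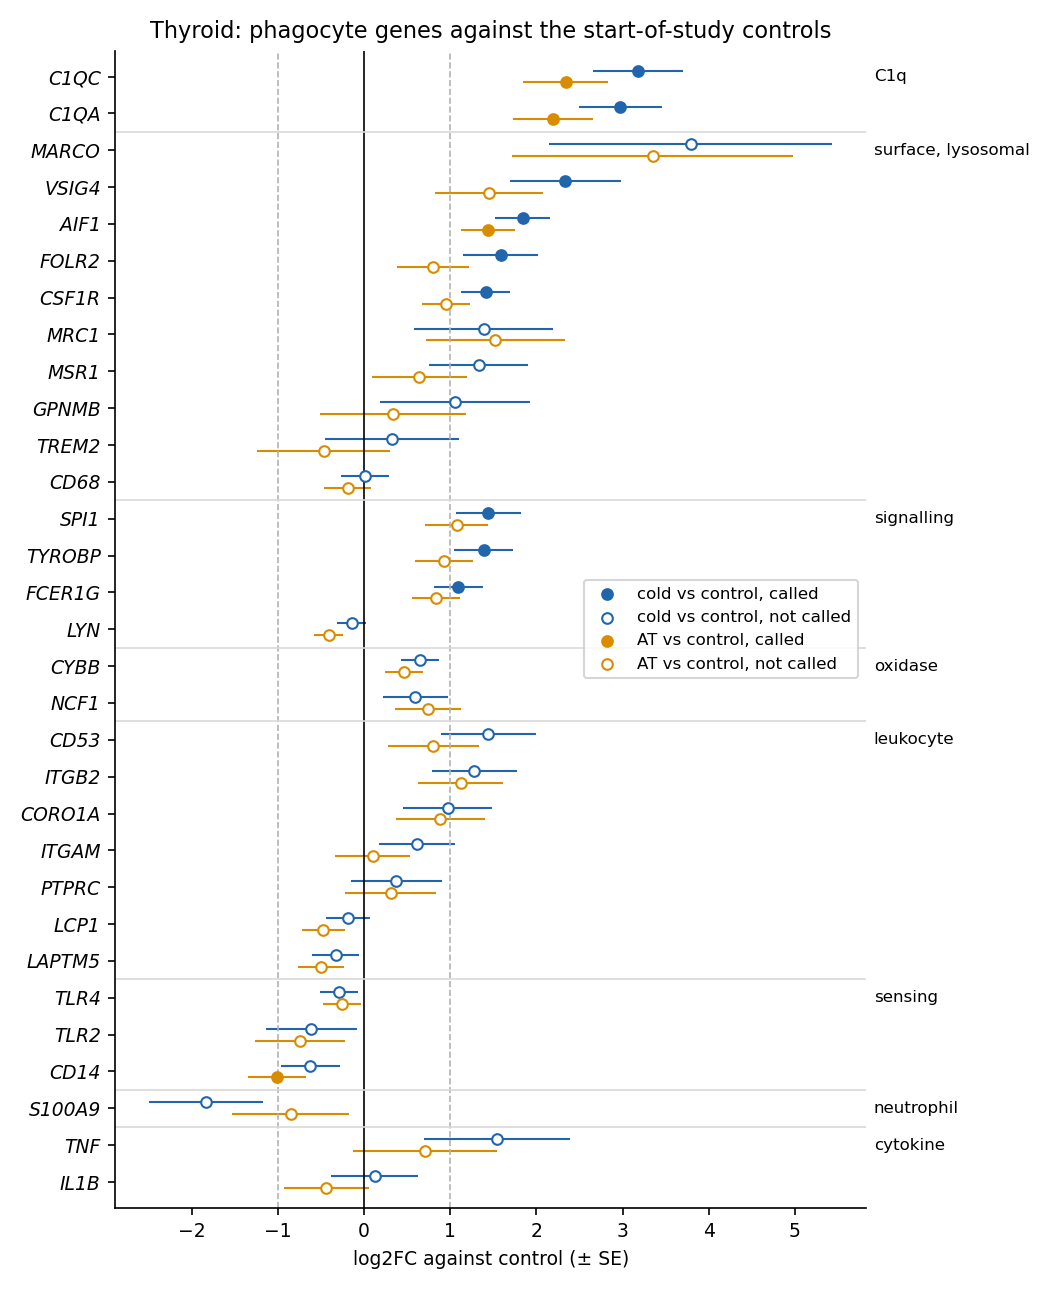
Log2FC (± SE) of the 31 tested members in thyroid tissue against the controls, grouped by role, for cold (blue) and AT lambs (orange); filled points are called genes and dashed lines mark a log2FC of 1 and -1. C1q and several surface and signalling genes lie to the right, with C1QC at 3.18 in cold, while CD14, TLR2, TLR4 and S100A9 lie to the left.

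Other members of the same cell types had values near or below 0 in thyroid tissue. CD68 had a log2FC of 0.01 ± 0.28 in cold lambs, with 641 and 615 normalized counts in the controls and 394 to 877 in cold lambs. The 3 sensors of microbial products, CD14, TLR2 and TLR4, had log2FC of -0.62, -0.61 and -0.29 in cold and -1.01, -0.74 and -0.25 in AT, where CD14 alone was called (controls 208 and 234, AT lambs 66.6 to 147 with a median of 116; adjusted p-value 0.0452, edgeR). With TMM scaling the log2FC of CD14 in AT was -0.69 with an adjusted p-value of 0.169, and TLR4 turned to 0.01 in cold and 0.08 in AT. The call of CD14 was lost in 16 of 23 alternatives, among them all 3 controls, no filter, RNA integrity as a covariate and several single lambs left out. Of the integrin and pan-leukocyte genes, ITGB2 (1.28 ± 0.50), CD53 (1.44 ± 0.55), CORO1A (0.97 ± 0.52), ITGAM (0.62 ± 0.44) and PTPRC (0.38 ± 0.53) had positive values in cold lambs. LCP1 (-0.19 ± 0.25) and LAPTM5 (-0.33 ± 0.27) had negative ones. None of these genes was called, and LCP1 turned to 0.15 by TMM. These genes encode integrin chains, the tetraspanin CD53, the actin regulators coronin 1A and L-plastin, and the phosphatase CD45, and most are shared with lymphocytes.

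The 2 tested subunits of the NADPH oxidase, which makes superoxide in phagocytes, had log2FC of 0.65 ± 0.22 (CYBB; adjusted p-value 0.0518, edgeR) and 0.60 ± 0.38 (NCF1) in cold lambs. The remaining surface genes MSR1 (1.33 ± 0.57), MRC1 (1.39 ± 0.80), GPNMB (1.05 ± 0.87) and TREM2 (0.32 ± 0.78) were not called, nor was LYN, a kinase downstream of immune receptors (-0.14 ± 0.17). MRC1, the mannose receptor, was at 58.6 and 26.5 in the controls, 46.7 to 421 in AT lambs (median 64.9) and 74.7 to 166 in cold lambs (median 111). Its highest value was in AT 3, the library with most muscle RNA, and without AT 3 its rise in cold lambs was called (adjusted p-value 0.0235, edgeR).

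MARCO, a scavenger receptor, had the largest fitted change in thyroid tissue but rested on few reads in the controls used. These held 4 and 1 reads, or 4.34 and 1.32 normalized counts, and the cold lambs 7.03 to 132 (median 22.4) and the AT lambs 2.66 to 102 (median 15.5). The log2FC was 3.79 ± 1.64 in cold (adjusted p-value 0.117, edgeR) and 3.35 ± 1.63 in AT (0.154), not called. Control 2 was at 258, above every other thyroid library, and with all 3 controls the sign turned, to -1.05 in cold and -1.48 in AT.

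In AT lambs, C1QA, C1QC and AIF1 were the 3 members upregulated in thyroid tissue, against 1.82% of all genes, and CD14 the 1 downregulated, against 5.98% (7.8% either way). Every AT lamb lay above both controls for 7 of 31 members and 5.63% of all genes, and the log2FC was above 0 for 21 members and 31.5% of all genes. TMM scaling called 7 members, all upregulated, adding CSF1R (1.26), SPI1 (1.38), TYROBP (1.25) and FCER1G (1.16) and losing CD14. Without Control 3 no member was called here either, and with Control 2 in place of Control 3 C1QA and C1QC were called.

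No member was called between cold and AT lambs in thyroid tissue, nor was any of the 16122 genes by edgeR, while DESeq2 called 2 genes and no member. At an unadjusted p under 0.05 there were 870 genes (5.4%) and 6 members, which were C1QA, C1QC, CSF1R, FOLR2, VSIG4 and LYN. The log2FC was above 0 for 27 of 31 members against 51% of all genes, with a median of 0.39 over the members and 0.00 over all genes. Without Cold 1 the log2FC was above 0 for 24 members, with a median of 0.21. With Cold 1 kept, the log2FC was 0.84 ± 0.30 for C1QC (adjusted p-value 0.911, edgeR), 0.78 ± 0.28 for FOLR2 and 0.88 ± 0.38 for VSIG4. The groups of 6 overlapped for every member, while 0.118% of all genes had every cold lamb above and 0.0744% every cold lamb below the AT lambs.

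Beside the members, a list of 51 further phagocyte genes was followed, of which 34 were tested in thyroid tissue. In cold lambs 5 of the 34 were upregulated and 2 downregulated, beside 1.89% and 6.15% of all genes. C3AR1, the receptor of the complement fragment C3a, rose by 3.97 ± 0.61 (adjusted p-value 0.00205, edgeR), CLEC7A, a receptor for fungal glucans, by 1.49 ± 0.46 (0.0369) and FCGR1A, a receptor for immunoglobulin G, by 1.43 ± 0.44 (0.0357). The others up were C5AR1 (1.40 ± 0.34) and BTK (1.22 ± 0.40), and those down were the transcription factor CEBPB (-1.09 ± 0.31) and the lysosomal protease CTSB (adjusted p-value 0.0160, at the fold threshold). The named genes beyond the 3 largest were chosen after their values were seen. In AT lambs C3AR1 was up (2.99 ± 0.59) and CTSB (-1.21 ± 0.25) and CEBPB (-1.16 ± 0.31) were down. Of 8 tested T cell markers 1 was called in each comparison, CD2, at 2.83 ± 0.71 in cold and 2.45 ± 0.70 in AT. All 8 had a log2FC above 0 in both comparisons, with a median of 0.31 in cold and 2.23 in AT. The summed T cell level was 198 to 283 in the 3 controls, 292 to 693 in cold and 238 to 2326 in AT lambs. Without AT 2, the library with the highest T cell sum, C1QA, C1QC and AIF1 remained called in AT lambs. Other markers moved in the same comparisons: of 7 endothelial genes PECAM1 and CDH5 were downregulated in cold and PECAM1 in AT lambs. Of 2 tested B cell markers, BANK1 was upregulated in cold lambs (1.30, adjusted p-value 0.0477, edgeR), and the sum of 6 erythroid genes was 33.1 to 41.3 in the controls, 9.33 to 39.3 in cold and 7.09 to 33.7 in AT lambs. Their part in the results for the members was not tested.

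In BAT no member was called in cold lambs among 29 tested, against 0.577% of all genes upregulated and 0.637% downregulated (1.21% either way, 181 genes). There were 8 members at an unadjusted p under 0.05 by edgeR, against 18.1% of all genes, and DESeq2 called 1, LAPTM5. The log2FC was above 0 for 22 of 29 members and 41.2% of all genes, with a median of 0.43 against -0.10, or 0.52 against 0.02 by TMM. This shift depended largely on 1 lamb: without Cold 4 the log2FC was above 0 for 15 of 29 members and 37.7% of all genes. The medians were then 0.01 over the members and -0.14 over all genes. The shift also moved with the controls, the median of the members being 0.19 without Control 3 and 0.99 without Control 1. Every cold lamb was above both controls for 4 members (TLR4, LAPTM5, GPNMB and AIF1), against 8.89% of all genes, and below both for none, against 15.7%. The 3 largest log2FC were those of MARCO, GPNMB and C1QA.

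MARCO in BAT was at 4.01 and 19.5 in the controls (3 and 25 reads), from 3.25 to 85.8 in AT lambs (median 12.8) and from 14.3 to 1130 in cold lambs (median 53.0). Its log2FC was 4.24 ± 1.93 against control (adjusted p-value 0.260, edgeR) and 3.22 ± 1.11 against AT (0.290). The value of 1130 was Cold 4, and without this lamb the log2FC was 2.25 and 1.22. C1QA was at 213 and 115 in the controls, 165 to 736 in AT lambs (median 321) and 140 to 1781 in cold lambs (median 368), and C1QC at 523 and 275, 404 to 1846 (median 624) and 322 to 4650 (median 837). For both genes the groups overlapped and Cold 4 was the highest library. Against AT the log2FC of C1QC was 0.88 ± 0.61 (adjusted p-value 0.561, edgeR), and 0.05 without Cold 4. In BAT, Cold 4 was the highest of 15 libraries for 19 of the 34 members, and Control 3 the lowest for 10. The shares of all genes with these extremes were not counted.

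**Figure D3:**
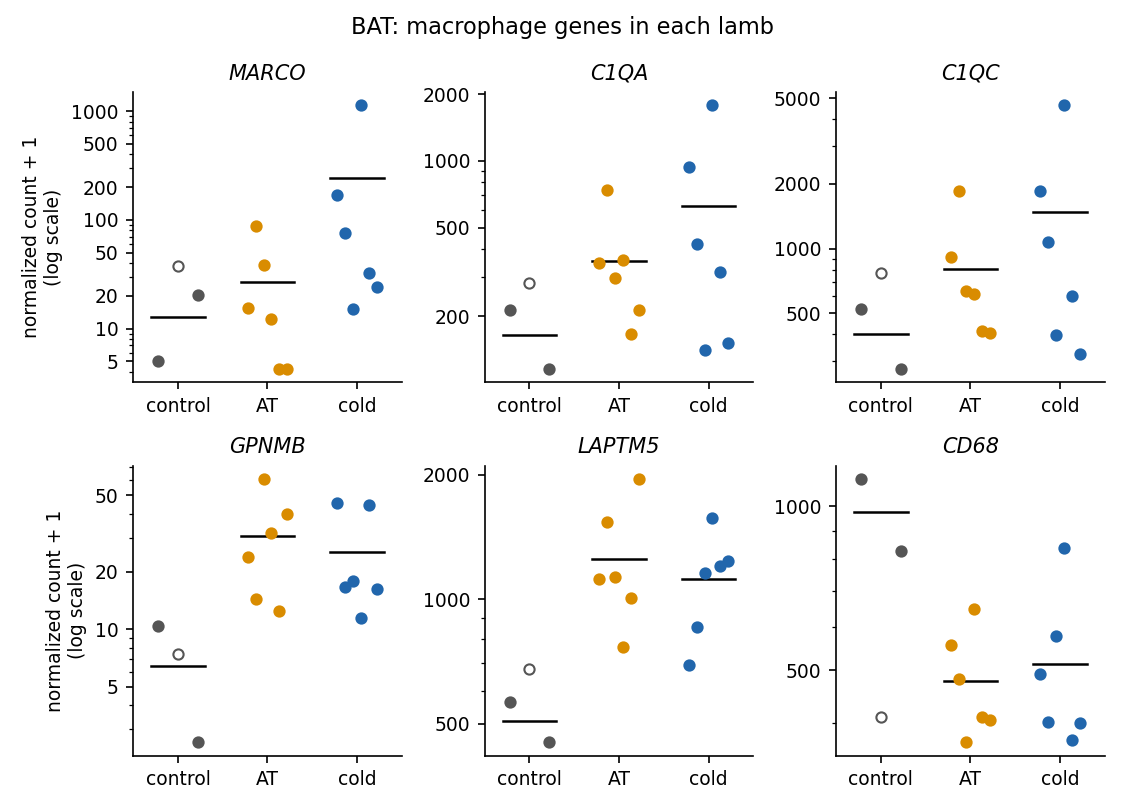
Normalized counts plus 1 (log scale) of MARCO, C1QA, C1QC, GPNMB, LAPTM5 and CD68 in BAT of each lamb by group; filled points are libraries in the fit, open points Control 2, and lines the means of the filled points. A single cold lamb reaches 1130 for MARCO and 4650 for C1QC, and for CD68 the open control point (409) lies among the treated lambs.

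GPNMB, a glycoprotein of lipid-laden macrophages, was at 9.36 and 1.56 in the BAT controls (7 and 2 reads) and 6.45 in Control 2. It ran from 11.5 to 60.1 in AT lambs (median 26.9) and from 10.5 to 44.7 in cold lambs (median 16.3), with every treated lamb above all controls. The log2FC was 2.58 ± 0.87 in AT (adjusted p-value 0.0731, edgeR) and 2.26 ± 0.87 in cold (0.176), neither called, and with all 3 controls GPNMB was called in AT lambs (2.55, adjusted p-value 0.0372).

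In AT lambs 1 member was upregulated in BAT, against 2.86% of all genes, and 1 downregulated, against 3.21% (6.07% either way). The log2FC was above 0 for 20 of 29 members, against 47.6% of all genes. Without Control 3 it was above 0 for 15 members, against 51.1% of all genes. Every AT lamb was above both controls for 4 members (LAPTM5, GPNMB, TYROBP and AIF1), against 8.96% of all genes, and below both for 1 (CD68), against 15.3%. LAPTM5 was at 564 and 449 in the controls, 767 to 1957 in AT lambs (median 1124) and 694 to 1573 in cold lambs (median 1180), without overlap. Its log2FC was 1.31 ± 0.35 in AT (adjusted p-value 0.0301, edgeR) and 1.15 ± 0.35 in cold (0.0954). CD68 was at 1123 and 828 in the controls, 367 to 647 in AT lambs (median 445) and 370 to 837 in cold lambs (median 445). It fell by 1.03 ± 0.28 on the log2 scale in AT (adjusted p-value 0.0310) and had a log2FC of -0.93 ± 0.28 in cold (0.0924). Control 2 was at 409 for CD68, within the range of the treated lambs, and with all 3 controls the log2FC in AT was -0.64 (adjusted p-value 0.162). Without Control 1, without Control 3, without AT 3 or without AT 5 the call of CD68 was lost, and without Control 1 or Control 3 that of LAPTM5 too. The call of CD68 was also lost by TMM (-0.95) and median-of-ratios scaling, and that of LAPTM5 with only the 2 groups compared and with Control 2 in place of Control 3 (1.11, adjusted p-value 0.0653, edgeR). VSIG4 and TYROBP, also among the larger changes in AT, had log2FC of 1.31 ± 0.98 and 1.31 ± 0.56 and were not called. Markers of other cells were called in the same comparison, FABP4 of 8 brown adipocyte genes (-1.39 ± 0.33) and KDR of 7 endothelial genes (-1.29 ± 0.20), both lower in AT lambs. The summed brown adipocyte level was 106113 to 365655 in the 3 controls, 26989 to 114093 in AT and 48233 to 87983 in cold lambs, and the endothelial sum 14358 to 50461, 29550 to 39984 and 37191 to 54961. Their part in the results for the members was not tested.

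Between cold and AT no member was called in BAT, against 0.275% of all genes, and no member separated the groups, against 0.537% of all genes with every cold lamb above and 0.154% with every cold lamb below, while 24 of 29 had a log2FC above 0, against 42.9% of all genes, with a median of 0.15. Without Cold 4 this direction turned, with 7 of 29 members above 0, against 36.6% of all genes. The medians were then -0.17 over the members and -0.10 over all genes. In that fit edgeR called 0 genes of the whole table in place of 41, with 1420 at an unadjusted p under 0.05. It also called 0 genes without AT 5 and with all 3 controls, and 2 without AT 3. Of the list of further phagocyte genes 31 were tested in BAT. None was called in cold lambs, and in AT lambs NCF4, an oxidase subunit (1.95 ± 0.56), CSF2RB, the shared chain of cytokine receptors (1.77 ± 0.38), and LIPA, the lysosomal acid lipase (1.60 ± 0.40), were upregulated, beside 2.86% of all genes.

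The neutrophil genes S100A8 and S100A9 had their highest levels in Control 2, the control left out, in both tissues. Among the libraries in the fits, S100A8 was highest in AT 2 in thyroid tissue (104) and in Cold 1 in BAT (29.8). S100A9 was highest there in AT 2 in thyroid tissue (407) and in Control 1 in BAT (88.2). S100A9 (chromosome 1, 109829725 to 109832491) was at 164 and 308 in the thyroid controls used and 952 in Control 2. It ran from 42.5 to 407 in AT lambs (median 88.2) and from 24.6 to 107 in cold lambs (median 61.6), so that every cold lamb was below every control. A separation in this direction from the 2 controls held for 28.5% of all genes. The log2FC in cold lambs was -1.83 ± 0.66 (adjusted p-value 0.0645, edgeR), not called, and with all 3 controls -2.84, called (adjusted p-value 0.00965). The call was also made by DESeq2 (adjusted p-value 0.0387), without AT 2 (0.0145, edgeR) and without AT 3 (0.0449), and not by TMM scaling (-1.50, 0.162). In BAT S100A9 was at 88.2 and 42.9 in the controls used and 344 in Control 2, 49.3 to 68.8 in AT (median 50.3) and 30.5 to 67.0 in cold lambs (median 41.8). The log2FC in BAT was -0.61 ± 0.34 in cold and -0.29 ± 0.34 in AT, and it was -1.83 (adjusted p-value 0.0272) and -1.50 (0.0412), both called, with all 3 controls.

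S100A8, the partner of S100A9, held 392 normalized counts in thyroid tissue of Control 2, 104 in AT 2 and 0 to 9.42 in the other 13 thyroid libraries. In BAT it held 96.8 in Control 2 and 0 to 29.8 elsewhere. CSF3R, the receptor of the neutrophil growth factor G-CSF, was at 65.5 and 64.5 in BAT of Controls 1 and 2 and at 59.5 in Cold 1, and ran from 2.71 to 44.2 in the other BAT libraries. Its log2FC was -1.12 ± 0.87 in cold and -1.16 ± 0.87 in AT, not called. The cytokine IL1B was at 46.8 in BAT of Control 1 and 0 to 12.4 in the other BAT libraries, and in thyroid tissue it had a log2FC of 0.12 ± 0.50 in cold. TNF had a thyroid log2FC of 1.54 ± 0.84 in cold (adjusted p-value 0.207, edgeR), with 70.7 in Cold 1 and at most 24.5 elsewhere. Control 2, with the highest S100A8 and S100A9 in both tissues, was also the highest BAT library for CD14 (452), TLR2 (88.2), TLR4 (374) and MSR1 (120).

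**Figure D4:**
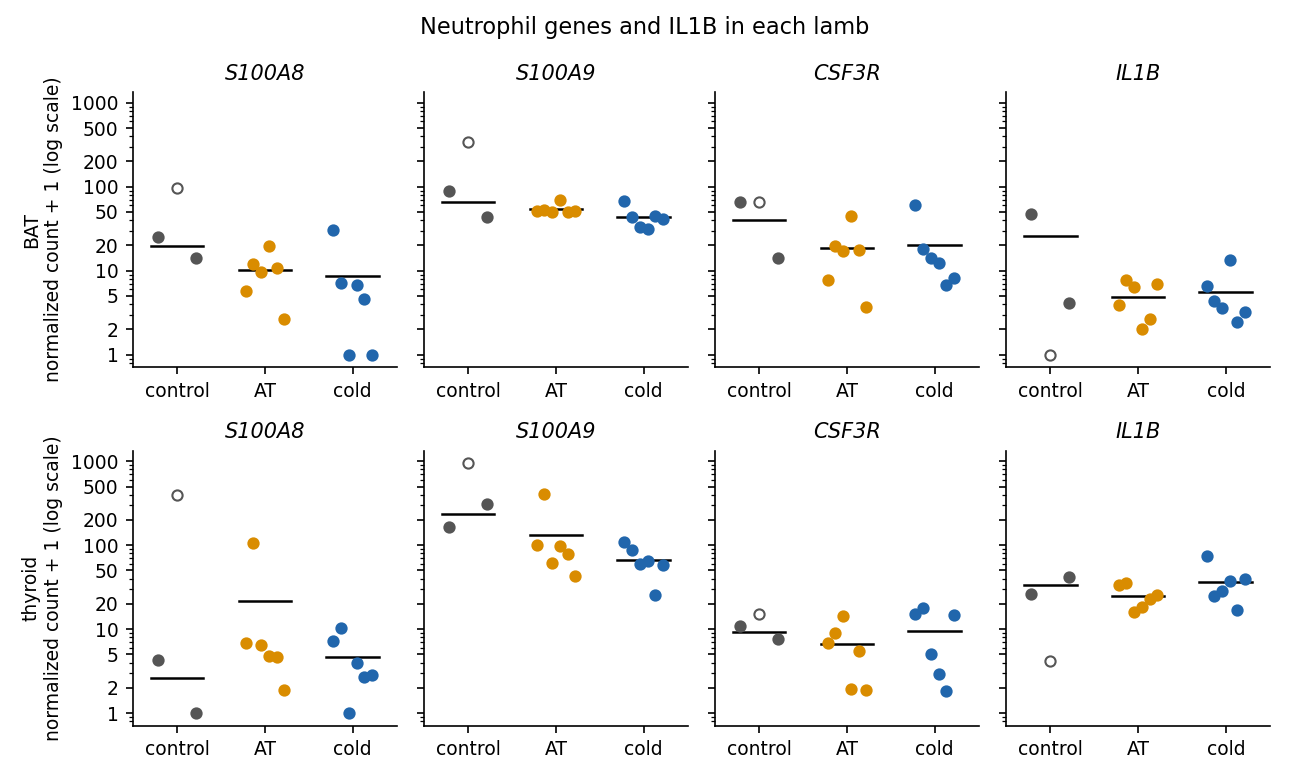
Normalized counts plus 1 (log scale) of S100A8, S100A9, CSF3R and IL1B in BAT (top) and thyroid tissue (bottom) of each lamb by group; filled points are libraries in the fit, open points Control 2, and lines the means of the filled points. S100A8 reaches 392 and S100A9 952 in the thyroid library of Control 2, with AT 2 next at 104 and 407.

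Since both tissues came from the same animals, the members were also compared between BAT and thyroid within 14 lambs, with the lamb as a block and 1 set of size factors for both tissues. Of 32 tested members 9 were called higher in BAT, against 26.2% of all genes, and 3 higher in thyroid, against 13.7% (39.8% either way). The difference was above 0 for 27 members and 62.9% of all genes. CSF3R had the largest difference, with a median of 23.7 in BAT (range 4.52 to 105) and 3.92 in thyroid (0.53 to 10.2), higher in BAT in 14 of 14 lambs (2.76 ± 0.37, adjusted p-value 1.75e-06, edgeR). It had at least 10 reads in 11 BAT and 4 thyroid libraries, so it was tested through the tissue where it was high, and the filter favoured this direction. MRC1 followed, at a median of 323 in BAT (131 to 567) and 48.7 in thyroid (16.8 to 272), higher in 13 lambs (2.43 ± 0.28, adjusted p-value 3.85e-07). MARCO (2.15 ± 0.38), ITGB2 (1.48 ± 0.22), TLR4 (1.32 ± 0.13), CD68 (1.24 ± 0.12), ITGAM (1.05 ± 0.28), TLR2 (1.05 ± 0.23) and GPNMB (1.05 ± 0.36) were the others, of which ITGAM, TLR2 and GPNMB missed the fold threshold under TMM. Markers of other cells differed too: all 7 endothelial genes were called higher in BAT, with a median of 2.42. Of 8 T cell genes 1 was called higher and 1 lower in BAT. Their part in the results for the members was not tested.

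In the opposite direction LCP1 stood at a median of 107 in BAT (39.3 to 432) and 714 in thyroid (568 to 1287), higher in thyroid in all 14 lambs without overlap of the ranges (-2.63 ± 0.27, adjusted p-value 9.92e-08, edgeR). CYBB, the catalytic oxidase subunit, had a median of 145 in BAT (86.8 to 846) and 598 in thyroid (369 to 768), higher in thyroid in all but 1 lamb (-1.55 ± 0.24, adjusted p-value 1.52e-05), and IL1B 5.32 and 16.1 (-1.21 ± 0.36, adjusted p-value 0.00565). IL1B had at least 10 reads in 3 BAT and 14 thyroid libraries and was likewise tested through the tissue where it was high. C1QA (0.25 ± 0.23) and C1QC (0.12 ± 0.23) were not called between the tissues. The median over the members was 0.70, that over all genes 0.30, and by TMM 0.49 and 0.09.

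**Figure D5:**
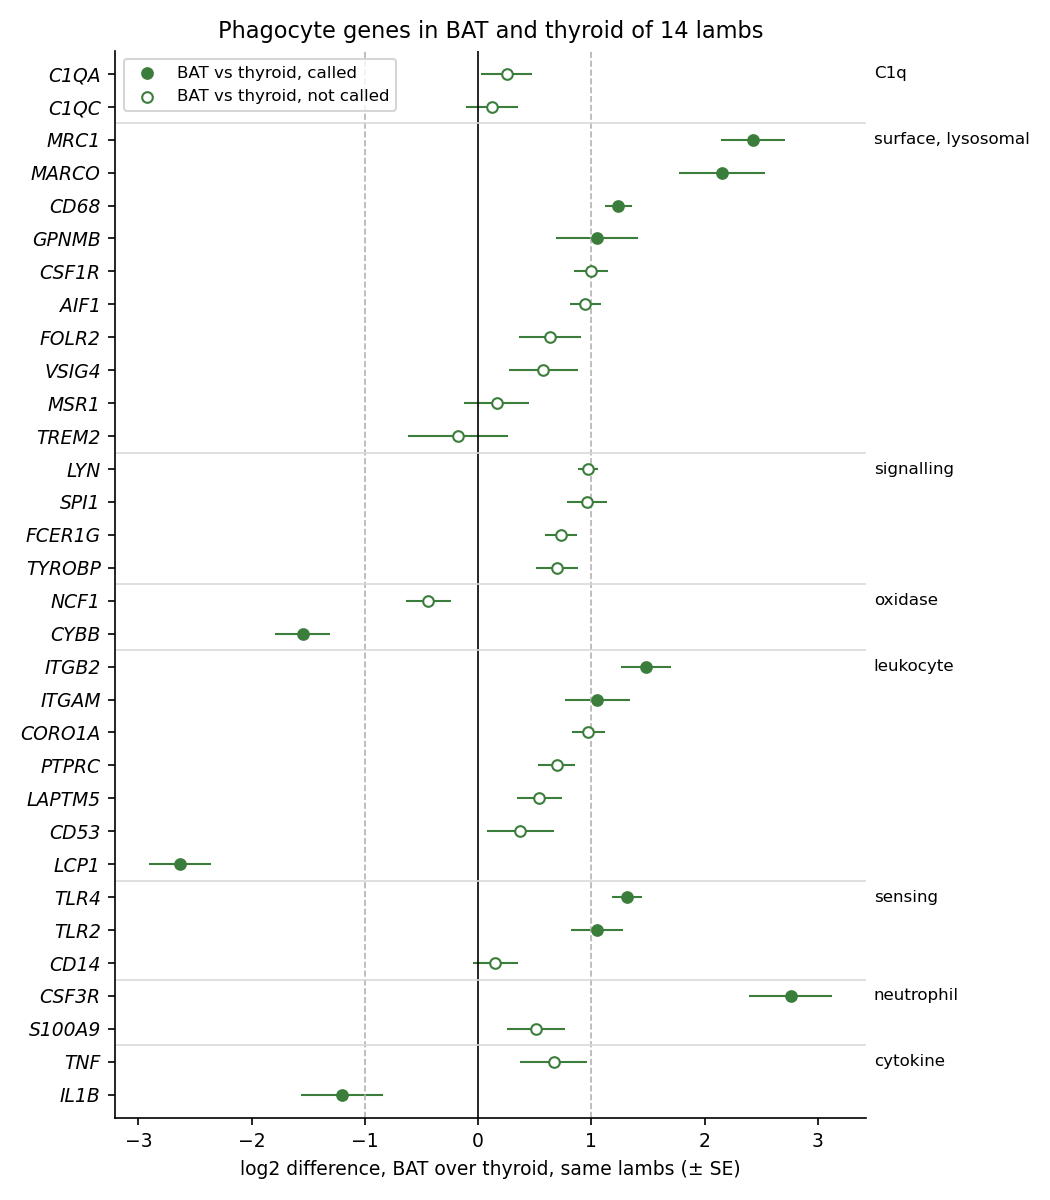
Log2 difference (± SE) between BAT and thyroid tissue of the same 14 lambs for the 32 tested members, grouped by role, with values above 0 higher in BAT; filled points are called genes and dashed lines mark 1 and -1. CSF3R (2.76) and MRC1 (2.43) lie farthest to the right and LCP1 (-2.63) farthest to the left.

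Whether the change with treatment differed between the tissues was tested as an interaction. For cold against control no member passed an adjusted p-value of 0.05, against 0.241% of all genes, C1QC having an estimated difference (BAT minus thyroid) of -1.71 ± 0.61 (adjusted p-value 0.254, edgeR). For AT against control 1 member passed, against 1.5% of all genes. This was LAPTM5, which was higher than control in BAT (1.31) and not in thyroid (-0.50), with a difference of 1.82 ± 0.44 (adjusted p-value 0.0493). The call was lost by TMM scaling (1.57, adjusted p-value 0.102) and with all 3 controls (1.33, adjusted p-value 0.106). For cold against AT no member passed, against 0.00602% of all genes.

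Levels in BAT and thyroid tissue of the same animal were correlated over the 12 treated lambs for the 28 members tested in both tissues. Pearson's r ran from -0.33 to 0.80 with a median of 0.35 and was above 0 for 19 members. MARCO had the highest r, 0.80 (permutation test, adjusted p-value over 28 members 0.0515), with a Spearman's rho of 0.85 (0.0137), and r was 0.60 without Cold 4 and AT 6, the lambs farthest from the median in BAT. Within the 6 cold lambs r was 0.86 and within the 6 AT lambs 0.84. PTPRC had an r of 0.74 (permutation test, adjusted p-value 0.0810) and a rho of 0.87 (0.0137), with r of 0.80 without Cold 4 and AT 2. For C1QC r was 0.70 (permutation test, adjusted p-value 0.0810) and 0.48 without Cold 4 and Cold 1, whereas MRC1 had an r of -0.33. No member passed an adjusted p-value of 0.05 by Pearson's r and 2 members, MARCO and PTPRC, passed by Spearman's rho.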

How the data were processed

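Per the labels and the study's methods, mRNA was captured with oligo(dT) beads and sequenced in pairs, and the authors trimmed reads with Trimmomatic 0.39, aligned them with STAR 2.7.7a to Oar_rambouillet_v1.0 and counted them per gene with featureCounts (Subread 2.0.0), with multimapping reads counted, so near-identical genes share reads. Strand use was not given in the sources used here. The authors deposited raw counts without normalization. Here, size factors came from ACTB, RPL19 and HUWE1 (DESeq2 1.42.0), and counts were tested per tissue in edgeR 4.0.16 (R 4.3.3), 3 groups in one fit, on 14905 genes in BAT and 16122 in thyroid tissue with at least 10 reads in at least 10 of 14 libraries. The controls used were identified from the study's normalized counts, which were proportional to single libraries. Lambs were numbered in the order of the samples within a group. BAT and thyroid libraries were paired by the lamb number in the labels. Correlations used log2(normalized count + 1) and 100000 permutations. Nothing in the labels marks a batch. The fits were tested on simulated data. The members, roles and lists were chosen with earlier results of these data known. Named with values per lamb are members called in a within-tissue comparison and the 3 with the largest |log2FC| in each; other genes or libraries were named after their values were seen. Alternatives were TMM and median-of-ratios scaling, DESeq2's Wald test, all 3 controls, no filter, RNA integrity as a covariate, only the 2 groups compared, adjusted p alone, and each lamb left out; Control 2 in place of either other control was added after seeing the data. No sequence was analysed here.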

Additional observations from a re-analysis of the deposited data

Results flagged for a closer look

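Dixon's criterion for an outlying lamb was taken on log2(normalized count + 1), and by chance it is met in about 1 of 20 groups. By this criterion 1 lamb stood far from the other 5 in 6 of 120 groups of 6 lambs. These were CD68 in thyroid tissue of AT 6 (364 normalized counts, the lowest of its group), MRC1 in thyroid tissue of AT 3 (421, the highest), FCER1G in BAT of AT 2 (371, the highest), TLR4 in thyroid tissue of Cold 1 (311, the highest), S100A9 in BAT of AT 4 (68.8, the highest) and S100A9 in thyroid tissue of AT 2 (407, the highest). The change of LAPTM5 from control to AT differed between BAT and thyroid tissue by 1.82 on the log2 scale in the interaction test.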

How the results depend on the processing

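The number of members called was compared under each alternative. In BAT, cold against control gave 0, but 1 by DESeq2 (LAPTM5), 1 with all 3 controls (S100A9, down), 1 with only the 2 groups compared (LAPTM5) and 2 with Control 2 in place of either other control (CD14 and S100A9, down), and 0 to 1 with a lamb left out. AT against control gave 2, but 1 by TMM, 1 by median-of-ratios, 1 with only the 2 groups compared and 3 by DESeq2. It gave 4 with all 3 controls, 4 with Control 2 in place of Control 1, and 1 to 2 with a treated lamb left out. The fits with a single control are given above. In thyroid tissue, cold against control gave 9, but 13 by DESeq2, 12 with only the 2 groups compared and 11 with all 3 controls. It gave 7 with Control 2 in place of either other control, and 8 to 11 with a treated lamb left out. The fits with a single control, which called fewer members, are given above. AT against control gave 4, but 7 by TMM, 7 by median-of-ratios, 6 by DESeq2 and 6 by the adjusted p alone. It gave 3 with all 3 controls, no filter, RNA integrity as a covariate, only the 2 groups compared or Control 2 in place of Control 1. With Control 2 in place of Control 3 it gave 2, and with a treated lamb left out 3 to 5. Cold against AT gave 0 in both tissues under every alternative run. The AT interaction gave 1, and 0 by TMM and 0 with all 3 controls. The cause of these shifts was not tested. BAT against thyroid gave 12 with the lamb as a block and 13 with no replicate block (SPI1 and CSF1R gained a call and IL1B lost it, at -0.76). It gave 9 by TMM, 13 with all 3 controls, 13 with no filter, 22 by the adjusted p alone and 10 to 16 with a lamb left out. MARCO in thyroid tissue reversed, to -1.05, -1.62 and -1.64 in cold and -1.48, -2.05 and -2.07 in AT with all 3 controls, with Control 2 in place of Control 1 and with Control 2 in place of Control 3. No paired analysis was possible within a tissue because the groups share no lambs. With 2 controls, and with BAT depth reduced by a pair of abundant genes, changes of members at a few reads (MARCO, GPNMB, VSIG4) had the widest errors.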
